A study of Mus musculus with 9 samples.

Results

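E proteins and their Id inhibitors were followed at the transcript level in invariant natural killer T cells of the type 1 subset (iNKT1 cells) from 3 organs. The genes are the E protein genes Tcf3 and Tcf12 and the inhibitor genes Id2 and Id3, taken by name and found in the table by symbol. All 4 of the 4 are among the 14004 genes of the deposited table. The libraries are RNA-seq of iNKT1 cells from thymus, liver and spleen, with 3 libraries per tissue and 9 in all. Every library is labelled strain C57BL/6, genotype Tbx21CreTg;Rosa26-LSL-YFP+/+ and untreated, so each tissue carries the same Cre transgene and the same YFP reporter, and the labels give no age. The Cre is driven by Tbx21, which encodes T-bet, the factor that defines the type 1 subset. The series describes the replicates as independent, but the labels do not say whether they came from separate animals. The p-values therefore measure only the spread between these libraries.

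E proteins are basic helix-loop-helix transcription factors that bind DNA as dimers at short motifs called E-boxes. Tcf3 encodes E2A (the E12 and E47 proteins) and Tcf12 encodes HEB. Id proteins have the helix-loop-helix but lack the basic region that contacts DNA, so that an E protein paired with an Id protein cannot bind. In T cells the balance between the 2 classes is known for its part in thymocyte selection, in natural killer T cell development and in the choice between effector and memory fates.

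E-boxes read CANNTG, in which N is any base, and the motif is its own reverse complement. The stretches below show the E-boxes found within 250 bases upstream of 1 RefSeq start site of each of the 4 genes, the first listed (build GRCm38.p6). They are given because these letters are the kind of site that the proteins under study bind, and the E-box is in capitals. The Id2 stretch lies at chr12:25096271-25096300 on the minus strand, with its E-box 196 bases before the start site. The Tcf3 stretch lies at chr10:80433672-80433701 on the minus strand, with its E-box 54 bases before the start site. The Tcf12 stretch lies at chr9:72112040-72112069 on the minus strand, with its E-box 240 bases before the start site. None of these stretches is within an exon of its gene in GENCODE M21. The Id2 stretch does lie within the span of Id2 there, chr12:25093799-25097140, and 161 of the 250 bases of its window are in an Id2 exon.
Id2: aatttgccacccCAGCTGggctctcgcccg
Tcf3: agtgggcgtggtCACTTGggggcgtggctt
Tcf12: agatgctgccCAGCTGcgtccccgtcgcgg
No CANNTG was found in the Id3 window, chr4:136143572-136143821 on the plus strand, which GENCODE M21 places inside the first exon of an Id3 transcript that starts further upstream. Of 32851 RefSeq windows of this length, 66.2% hold CANNTG and 13.0% hold CAGCTG, so a match is common and is a description of the sequence only. The letters GCGNGGGCG, searched on both strands as the site of EGR factors, were in none of the 4 genes' windows and in 4.70% of all windows.

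The values are the authors' normalised read counts, whose scaling is not given in the sources used here. Reads were recovered from the equal steps between low values, and totalled 3877119 in liver replicate 3 and 18505476 to 39568081 in the other 8 libraries. All 6 iNKT1 marker genes (Tbx21, Cd3e, Zbtb16, Klrb1c, Il2rb, Cxcr3) had reads in every library, with summed values of 78525 to 138150. Liver and spleen replicate 1 held the most B cell marker reads, and thymus replicate 3 held the most immature thymocyte marker reads, as given beside the results. The libraries numbered 2 had high Xist, from 84543 to 107740, and summed values of 3.96 to 17.9 for 4 Y-linked genes. That sum was 7034 to 12521 in the libraries numbered 1, so replicates 1 and 2 of a tissue were not from the same animal. Thymus replicate 3 had both Xist, at 16531, and a summed value of 8785 for 4 Y-linked genes, whereas in each of the other libraries only the first or only the second was high. On the log2(value + 1) scale the median difference of all 13309 genes tested was 0.29 between liver and thymus, 0.33 between spleen and thymus and -0.02 between liver and spleen, and each gene's difference is to be read against that shift.

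Tcf12, the gene for HEB, had the smallest fitted differences between tissues of the 4 genes. Its normalised read count was 5575, 3902 and 4686 in thymus replicates 1, 2 and 3. It was 3888, 4886 and 5735 in the liver replicates and 4985, 5165 and 4385 in the spleen replicates. The 3 ranges overlapped, and the lowest and highest of the 9 values were both in liver. The means were 4721 ± 837 in thymus, 4836 ± 925 in liver and 4845 ± 408 in spleen (SD, n = 3 each).
The liver minus thymus difference was 0.03 on the log2(value + 1) scale (95% confidence interval -0.59 to 0.65, limma-trend adjusted p = 0.977), which bounds a liver level between 0.664 and 1.57 times that of thymus. The spleen minus thymus difference was 0.05 (interval -0.57 to 0.67, adjusted p = 0.969) and the liver minus spleen difference was -0.02 (interval -0.64 to 0.60, adjusted p = 0.99986). Each sign turned under at least 1 other scaling or test, so no direction is given for Tcf12. The within-tissue SD of Tcf12 was 0.232 on the log2 scale, against a median of 0.404 over 782 genes of like mean level, of which 9.08% had a smaller SD. The gene spans chr9:71842688-72111871 on the minus strand (ENSMUSG00000032228, GRCm38, GENCODE M21), with 15.5 kb of exon sequence. In that span lie 11 other genes, and 0 of them overlap a Tcf12 exon.

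Tcf3, the gene for E2A, varied more between the libraries within thymus and within spleen than between the tissue means. Its normalised read count was 873, 3801 and 317 in thymus replicates 1, 2 and 3. In the liver replicates it was 656, 995 and 849, and in the spleen replicates 2032, 648 and 604. Thymus held both the highest and the lowest value of the 9, an 11.98-fold range, and spleen replicate 1 was 3.36 times the lowest spleen library. The liver values lay within 1.52-fold of each other, inside the thymus range.
The means were 1664 ± 1872 in thymus, 833 ± 170 in liver and 1094 ± 812 in spleen (SD, n = 3 each). On the log2(value + 1) scale liver minus thymus was -0.31 (95% confidence interval -1.99 to 1.37, limma-trend adjusted p = 0.913). Spleen minus thymus was -0.14 (interval -1.82 to 1.55, adjusted p = 0.968) and liver minus spleen was -0.17 (interval -1.85 to 1.51, adjusted p = 0.99986). These intervals are wide, and the first of them runs from 0.252 to 2.59 times the thymus level. Without thymus replicate 2 the liver minus thymus value became 0.64 and the spleen minus thymus value 0.81. Without spleen replicate 1 the liver minus spleen value became 0.39. The spleen minus thymus sign also turned without spleen replicate 2 (0.12) or spleen replicate 3 (0.17). With array weights all 3 signs turned, so no direction is given for Tcf3.
The within-tissue SD of Tcf3 was 1.196 on the log2 scale, against a median of 0.775 over 1883 genes of like mean level, of which 84.2% had a smaller SD. E2A is also a factor of B cell development, and the summed value of the 4 B cell markers in the table (of a list of 6) was 2122 in spleen replicate 1. It was 0.109 in thymus replicate 2, the library with the highest Tcf3, where all 4 had no reads. In liver replicate 1, which had the next largest sum, 747, Tcf3 read 656, the lowest liver value. The part of B cell RNA in the Tcf3 value of spleen replicate 1 was not tested. Tcf3 lies at chr10:80409514-80433647 on the minus strand (ENSMUSG00000020167), with 4.04 kb of exon sequence.

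**Figure D1:**
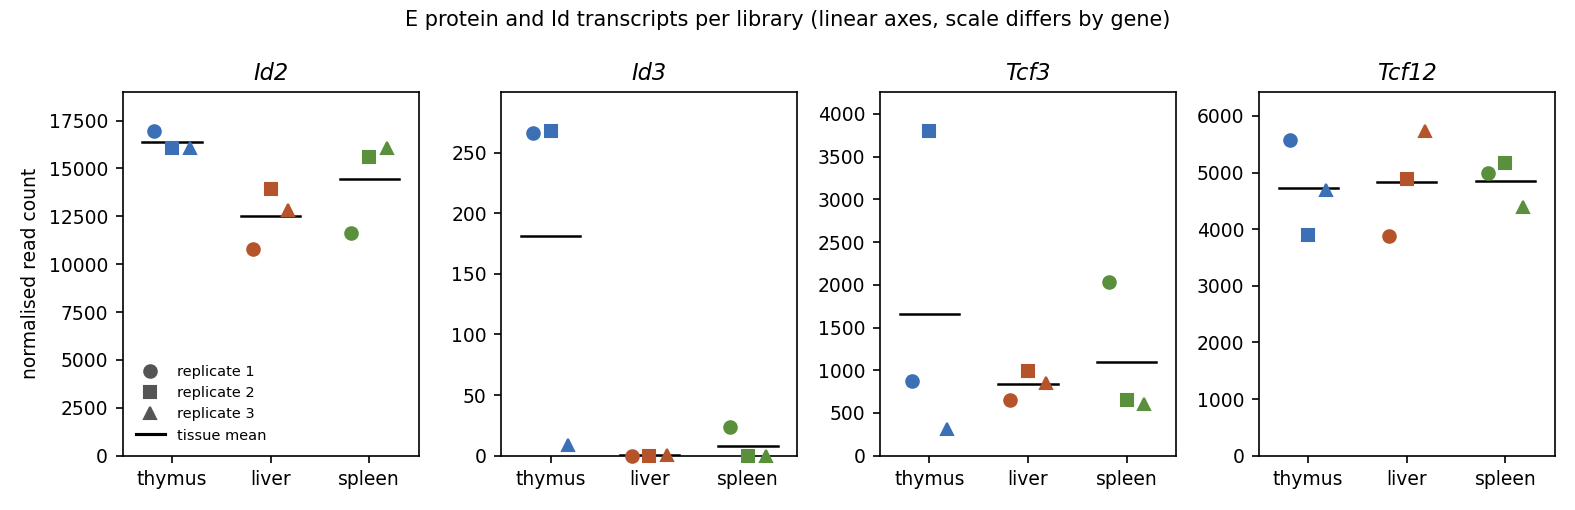
Normalised read count (vertical, linear, a different scale for each gene) of Id2, Id3, Tcf3 and Tcf12 in each library, by tissue; the marker shape is the replicate number and the line is the tissue mean (n = 3). Id3 is near 267 in thymus replicates 1 and 2 and at 23.8 or below in the other 7 libraries, Tcf3 is high in thymus replicate 2 and spleen replicate 1, and Tcf12 overlaps between all tissues.

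Id2 was the most abundant of the 4 genes in every library. It encodes the inhibitor that innate-like and effector lymphocytes are known to depend on. Its normalised read count was 16956, 16050 and 16057 in thymus replicates 1, 2 and 3. It was 10795, 13908 and 12822 in the liver replicates and 11652, 15596 and 16053 in the spleen replicates. The thymus libraries lay within 1.06-fold of each other, all above the 3 liver libraries, and the spleen range overlapped both. Replicate 1 was the lowest library in liver and in spleen, and these 2 libraries held the most B cell marker reads, with sums of 747 and 2122.
The means were 16354 ± 521 in thymus, 12509 ± 1580 in liver and 14433 ± 2420 in spleen (SD, n = 3 each), so that the thymus mean was 1.31 times the liver mean. Liver minus thymus was -0.39 on the log2(value + 1) scale (SE 0.21, 95% confidence interval -0.84 to 0.05, unadjusted p = 0.0794, limma-trend adjusted p = 0.477). Over the 24 alternative settings its adjusted p ran from 0.226 to 0.740. Spleen minus thymus was -0.19 (interval -0.64 to 0.25, adjusted p = 0.752) and liver minus spleen was -0.20 (interval -0.65 to 0.25, adjusted p = 0.99986). Without both libraries with the most B cell marker reads, liver minus thymus was -0.29, spleen minus thymus -0.05 and liver minus spleen -0.24. The part of B cell RNA in the Id2 values was not tested. Per kb of exon sequence Id2 stood between the 99.2 and the 99.5 percentile of genes in each library. Its within-tissue SD was 0.185 on the log2 scale, against a median of 0.279 over 154 genes of like mean. Id2 lies at chr12:25093799-25097140 on the minus strand (ENSMUSG00000020644), with 2.44 kb of exon sequence.

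Id3 reads came mostly from thymus libraries. It encodes the other inhibitor expressed in T cells, a gene induced by antigen receptor signals and known in natural killer T cell development. Its normalised read count was 266, 268 and 8.83 in thymus replicates 1, 2 and 3, from 238, 232 and 7 recovered reads. No liver library had a read. In spleen, replicate 1 had 32 reads, a value of 23.8, and replicates 2 and 3 had 0 reads. Thymus replicates 1 and 2 stood above every other library, while thymus replicate 3 lay below spleen replicate 1, so that thymus and liver did not overlap and thymus and spleen did.
A level equal to the thymus mean of 181 ± 149 (SD, n = 3) would have given 208, 211 and 29.8 reads in liver replicates 1, 2 and 3, and 263 and 302 reads in spleen replicates 2 and 3. A level equal to thymus replicate 3 would have given 10.2, 10.3 and 1.31 reads in the liver libraries, so liver replicate 3 could not show a level that low. Set against 3 reads in each liver library, the limit that a count of 0 allows, Id3 was at least 22.5-fold lower in liver than in thymus by the means. Without the shallow liver replicate 3 this bound was 70.6-fold. It ran from 16.8-fold to 33.2-fold when any other liver or thymus library was left out. The spleen mean was 7.94 ± 13.8 (SD, n = 3) and came wholly from replicate 1. Without that library Id3 was at least 97.5-fold lower in spleen than in thymus. Bounds and limits of this kind cover counting error only.
In the fit across all genes the liver minus thymus difference of Id3 was -6.19 on the log2(value + 1) scale (SE 1.90, 95% confidence interval -10.23 to -2.16, unadjusted p = 0.00511, limma-trend adjusted p = 0.223). It did not pass the threshold of 0.05 on the adjusted p. Its adjusted p was 0.372 with edgeR and 0.0350 with DESeq2, both on recovered reads, and ran from 0.0350 to 0.499 over the 24 alternatives, with DESeq2 the only one past the threshold. Spleen minus thymus was -4.93 (SE 1.90, unadjusted p = 0.0198, limma-trend adjusted p = 0.324, range over alternatives 0.110 to 0.644). Liver minus spleen was -1.26 (adjusted p = 0.99986), with no sign to be read from it, since it became 0.28 without spleen replicate 1. Id3 passed the filter on low values through its 3 thymus libraries and spleen replicate 1. In bulk RNA, fewer cells that express a gene and less RNA per cell cannot be told apart.
Spleen replicate 1 also had the largest sums of the B cell markers, 2122, and of the 4 myeloid markers in the table, 2904. Liver replicate 1 had B cell and myeloid sums of 747 and 1189 and 0 Id3 reads. The immature thymocyte markers in the table (4 of a list of 6) summed to 16.9, 5.89 and 679 in thymus replicates 1, 2 and 3. In thymus replicates 1, 2 and 3 no B cell marker had a read. The part of B cells, myeloid cells and immature thymocytes in the spleen and thymus values of Id3 was not tested. Id3 lies at chr4:136143497-136145755 on the plus strand (ENSMUSG00000007872), with 1.79 kb of exon sequence.

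**Figure D2:**
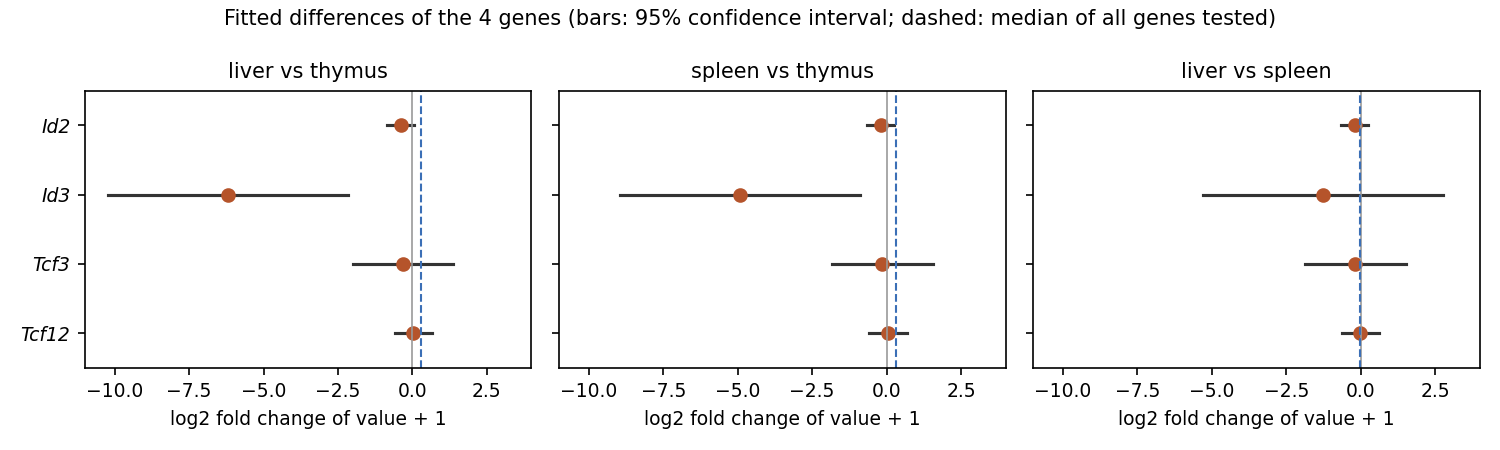
Fitted difference of each gene on the log2(value + 1) scale (horizontal) for liver against thymus, spleen against thymus and liver against spleen, as points with 95% confidence intervals from limma-trend; the dashed line is the median of all genes tested. The Id3 intervals against thymus lie below 0, at -10.23 to -2.16 and -8.97 to -0.90, and those of the other 3 genes include 0.

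Counted over the 4 genes, 0 passed the adjusted threshold in limma-trend, in any of the 3 comparisons or in the F-test across the tissues. Over all genes tested, 0.323% passed for liver against thymus, 0.398% for spleen against thymus, 0.015% for liver against spleen and 0.346% in the F-test, and 0 of 4 is not told apart from such shares. Before adjustment the limma-trend p was under 0.05 for Id3 alone in liver against thymus, in spleen against thymus and in the F-test, and for 0 of 4 in liver against spleen. The F-test of Id3 had an unadjusted limma-trend p of 0.0122 (adjusted p = 0.322). The shares of all genes at that unadjusted level were 11.6%, 11.7%, 9.95% and 3.03%, in that order. With DESeq2, 1 of the 4, Id3, passed for liver against thymus, beside 3.85% of all genes, and 0 passed elsewhere. With edgeR 0 passed in every comparison, beside 0.186% of all genes for liver against thymus, and Id3 alone had an unadjusted p under 0.05, for liver against thymus and in the F-test. The values of liver and thymus did not overlap for 2 of the 4 genes, Id2 and Id3, beside 15.3% of all genes. For spleen against thymus and liver against spleen this held for 0 of 4, beside 15.3% and 12.7%.

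The Id2 to Id3 balance, taken as log2((Id2 + 1)/(Id3 + 1)), leaned to Id2 in every library and least in thymus. It was 5.99, 5.90 and 10.67 in thymus replicates 1, 2 and 3. It was 13.40, 13.76 and 12.79 in the liver replicates and 8.88, 13.93 and 13.97 in the spleen replicates. Thymus replicate 3 was the highest thymus library but below every liver library, and spleen replicate 1 was the only spleen library inside the thymus range. The tissue means were 7.52 ± 2.73 in thymus, 13.32 ± 0.49 in liver and 12.26 ± 2.93 in spleen (SD, n = 3 each).
Of the sum of squares of the balance, 63.7% lay between tissues, a share reached by 20 of the 280 partitions of the 9 libraries into groups of 3 (exact permutation test, one-sided, p = 0.0714, smallest possible p = 0.00357). Without spleen replicate 1 the share was 81.8% (exact p = 0.0429), and without any other library it was 52.4% to 80.3%, with exact p from 0.0714 to 0.114. The liver minus thymus difference was 5.80 (two-sided exact permutation p = 0.1, adjusted over 3 pairs 0.3), the spleen minus thymus difference 4.74 (exact p = 0.2, adjusted 0.3) and the liver minus spleen difference 1.06 (exact p = 1, adjusted 1). With 3 libraries against 3, no two-sided p below 0.1 can be reached. The differences are mostly those of Id3, since the Id2 means differed by at most 1.31-fold.
Where Id3 had no read, the balance is set by the added 1 and by depth, and the value at 3 reads gives a lower limit. With that limit the liver libraries stood at 11.56, 11.94 and 9.32 and spleen replicates 2 and 3 at 12.35 and 12.53. Liver replicate 3 then lay within the thymus range, and the share between tissues was 48.4% (exact permutation p = 0.118).

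**Figure D3:**
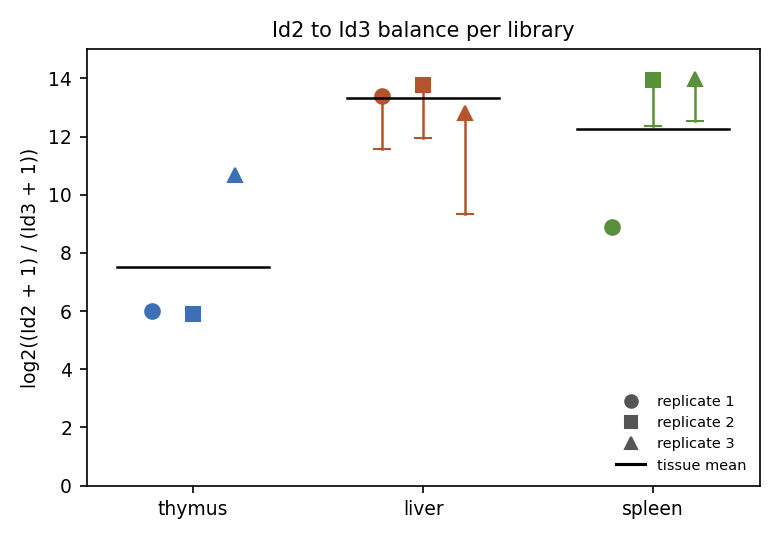
The balance log2((Id2 + 1)/(Id3 + 1)) in each library (vertical), by tissue; the marker shape is the replicate number, the line is the tissue mean (n = 3), and the bar below a point without Id3 reads reaches to the value that 3 Id3 reads would give. Thymus replicates 1 and 2 sit near 6 and the liver libraries between 12.79 and 13.76, while spleen replicate 1 stands at 8.88.

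Between genes, levels were compared per kb of exon sequence (GENCODE M21). By mean normalised read count per kb the order was Id2, then the E proteins, then Id3 in each tissue. Id2 stood at 6708 ± 214, 5131 ± 648 and 5920 ± 993 in thymus, liver and spleen (SD, n = 3 each). Tcf12 stood at 304 ± 53.9, 311 ± 59.6 and 312 ± 26.3, and Tcf3 at 412 ± 463, 206 ± 42.1 and 271 ± 201. Tcf3 and Tcf12 did not separate beyond their spread in thymus or spleen. In liver all 3 libraries had more Tcf12 than Tcf3. Id3 stood at 101 ± 83.3 per kb in thymus and reached 2.09%, 2.22% and 0.0748% of the summed Id transcripts in thymus replicates 1, 2 and 3.
The sum of both E proteins per kb was highest in thymus replicate 2, at 1192, and in spleen replicate 1, at 824, the libraries with the most Tcf3. In liver it was 413, 561 and 580 in replicates 1, 2 and 3, and Tcf12 was highest there in replicate 3 and Tcf3 in replicate 2. The ratio of Tcf12 to Tcf3 per kb was 1.66, 0.267 and 3.84 in thymus replicates 1, 2 and 3, 1.54, 1.28 and 1.76 in the liver replicates and 0.638, 2.07 and 1.89 in the spleen replicates. Tcf3 was the larger only in thymus replicate 2, with 78.9% of the E protein sum, and in spleen replicate 1, with 61.0%.
The ratio of Id to E protein transcripts, (Id2 + Id3)/(Tcf3 + Tcf12) per kb, was 12.3, 5.65 and 17.3 in the thymus replicates. It was 10.7, 10.2 and 9.08 in the liver replicates and 5.82, 13.0 and 15.2 in the spleen replicates. Liver lay inside the range of thymus and of spleen. The means were 11.8 ± 5.86, 9.99 ± 0.840 and 11.3 ± 4.92 (SD, n = 3 each), so the spread within thymus and within spleen exceeded the differences between tissues. Exon lengths count every annotated exon, and the 15.5 kb of Tcf12 lowers its level per kb if the cells use shorter transcripts, which was not tested.

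**Figure D4:**
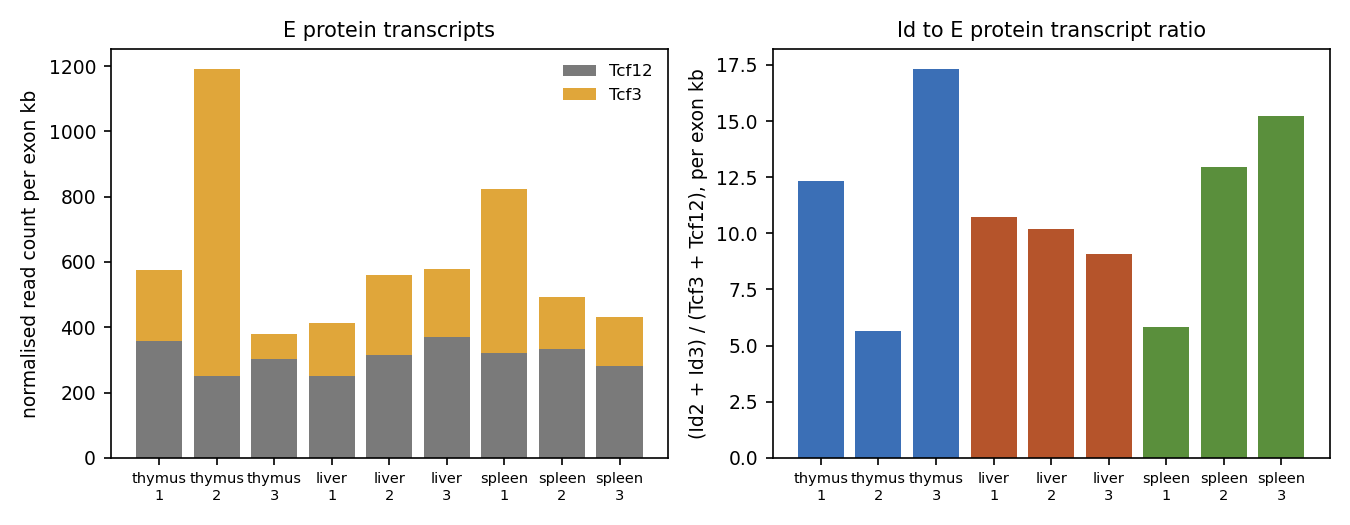
Left, normalised read count per exon kb (vertical) of Tcf12 and Tcf3, stacked, in each library; right, the ratio of summed Id to summed E protein levels per exon kb in the same libraries, coloured by tissue. Bars start at 0. Thymus replicate 2 and spleen replicate 1 have the highest Tcf3 and the lowest ratios, 5.65 and 5.82.

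The genes whose log2(value + 1) followed each of the 4 most closely were found by Pearson's r over the 9 libraries, among at least 8907 named genes with a mean of at least 100. These are descriptions across libraries that share tissue, depth and scaling. For Id2 they were Abca1 (r = 0.947), Mylip (0.942) and Stk38 (0.921). Abca1, a cholesterol exporter, read 4359, 3689 and 2146 in thymus, 271, 679 and 667 in liver and 440, 2227 and 1427 in spleen. It was thus low where Id2 was lowest, in liver replicate 1 and spleen replicate 1, and its range was far wider.
For Id3 they were Tmem120a (r = 0.958), Fibcd1 (0.956) and Acat1 (0.955). Fibcd1 read 277, 882 and 45.2 in thymus, 0, 5.98 and 0.856 in liver and 49.2, 0 and 0 in spleen, and the 4 libraries with the most Fibcd1 were the 4 with the most Id3. For Tcf3 they were Cry1 (r = 0.962), Nle1 (0.962) and Ncl (0.947). Nle1 read 1624 in thymus replicate 2 and 369 in spleen replicate 1, its highest values, with 35.2 to 225 in the other 7 libraries. For Tcf12 they were Stx6 (r = 0.917), Saal1 (0.914) and Nr2c2 (0.911). Among the 4 genes themselves the largest r was 0.56, between Tcf3 and Id3, and both were high in thymus replicate 2.

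Genes that work with the 4 were read from lists. Among 14 helix-loop-helix partners and cofactors, 7 were tested and 0 passed in any comparison (unadjusted 1, 2 and 0 for liver against thymus, spleen against thymus and liver against spleen, beside 11.6%, 11.7% and 3.03% of all genes). The list's median differences were -0.32, -0.19 and 0.13. Its most abundant members were the acetyltransferase genes that serve as coactivators. Ep300 averaged 12698 ± 3191 in thymus, 8841 ± 1883 in liver and 7964 ± 417 in spleen, and Crebbp 12621 ± 3435, 8762 ± 1830 and 10407 ± 1454 (SD, n = 3 each).
Among 10 regulators of Id genes and Id proteins, all 10 were tested and 0 passed in any comparison. The unadjusted counts were 0, 1 and 0, beside 11.6%, 11.7% and 3.03% of all genes, and the medians were -0.53, 0.21 and -0.87. Smad3, which carries TGF-beta signals, averaged 3816 ± 1079, 3007 ± 459 and 3483 ± 1906 in thymus, liver and spleen. Zbtb16, the PLZF gene of innate-like T cells, averaged 2624 ± 857, 1578 ± 615 and 2394 ± 205.

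Of 20 genes known to be regulated by E proteins in T cells, 14 were tested. In liver against thymus 1 of them fell, beside 0.323% of all genes past the threshold. That gene was Il7r, the interleukin 7 receptor alpha chain. Its normalised read count was 39747, 50118 and 27831 in thymus, 4131, 4674 and 2109 in liver and 15547, 17003 and 8546 in spleen. The 3 tissues thus did not overlap. Of all genes, 15.3% did not overlap for liver against thymus, 15.3% for spleen against thymus and 12.7% for liver against spleen. Il7r fell by 3.47 on the log2(value + 1) scale in liver against thymus (SE 0.34, limma-trend adjusted p = 0.000200), and kept an adjusted p of at most 0.0246 in all 24 alternatives. Spleen minus thymus was -1.54 (adjusted p = 0.0652) and liver minus spleen was -1.93 (adjusted p = 0.127). These 2 passed in 7 and 5 of the 24 alternatives, among them the fits with the replicate number as a block, with adjusted p of 0.00437 and 0.00214.
No other gene of this list passed in any comparison. With Il7r included, 5, 8 and 2 of the 14 had an unadjusted limma-trend p under 0.05 for liver against thymus, spleen against thymus and liver against spleen, beside 11.6%, 11.7% and 3.03% of all genes. The list medians were 0.55, 1.53 and -1.03, beside 0.29, 0.33 and -0.02 over all genes tested. Cd4, its next most abundant gene, averaged 3652 ± 3336 in thymus, 7106 ± 752 in liver and 7298 ± 2430 in spleen (SD, n = 3 each). Socs3, a feedback inhibitor of cytokine signals and singled out here after its values were seen, read 0.0212, 0.0273 and 5.07 in thymus. It read 197, 233 and 569 in liver and 219, 406 and 272 in spleen, with limma-trend adjusted p of 0.0630 and 0.0584 against thymus.

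Of 9 genes that go with high Id2 in effector CD8 T cells, all were tested. The granzyme genes Gzma and Gzmb fell in spleen against thymus, beside 0.398% of all genes past the threshold. Gzmb read 15045, 17618 and 14109 in thymus, 7927, 5937 and 10279 in liver and 477, 487 and 1395 in spleen. The spleen libraries were the lowest for Gzmb. No 2 tissues overlapped, beside 15.3%, 15.3% and 12.7% of all genes for liver against thymus, spleen against thymus and liver against spleen. Gzmb fell by 4.50 on the log2(value + 1) scale in spleen against thymus (SE 0.40, limma-trend adjusted p = 6.46e-05). It rose by 3.51 in liver against spleen (limma-trend adjusted p = 0.00297), where 0.015% of all genes passed. The rise was past the threshold no longer without liver replicate 1 (adjusted p = 0.0645), without liver replicate 3 (0.0507) or without both libraries with the most B cell reads (0.386).
Gzma read 4179, 7043 and 3087 in thymus, 3351, 323 and 631 in liver and 681, 204 and 166 in spleen, and fell by 3.98 in spleen against thymus (SE 0.79, limma-trend adjusted p = 0.0412). That call ended when any of 7 libraries was left out, which were the 6 compared and liver replicate 3, with adjusted p from 0.0504 to 0.193, and it ended with edgeR (0.103), with no filter on low values (0.0604) and with equal totals without mitochondrial genes (0.0532). In liver against thymus 0 of the 9 passed. The unadjusted counts of the list were 5, 3 and 2 of 9 in the 3 comparisons, beside 11.6%, 11.7% and 3.03% of all genes. In liver against thymus Il2rb, the most abundant gene of the list, averaged 66906 ± 4922 in liver and 38614 ± 2206 in thymus (adjusted p = 0.0595), and Gzmb had a difference of -0.98 (adjusted p = 0.361). The list medians were 0.12, 0.20 and 0.59.
Of 10 genes that go with high Id3 in memory or follicular T cells, 9 were tested. Il7r, shared with the E protein list, was the only one past the threshold, in liver against thymus, beside 0.323% of all genes. The unadjusted counts were 2, 5 and 1 of 9, beside 11.6%, 11.7% and 3.03% of all genes, and the medians were 0.85, 1.22 and -1.06. Lef1, a partner of beta-catenin, averaged 1934 ± 978 in thymus, 3272 ± 976 in liver and 4213 ± 1183 in spleen (SD, n = 3 each).

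Among markers of other cells, the hepatocyte sums of liver stood above those of thymus and spleen. The erythroid ranges overlapped between all tissues, and the thymus range of the iNKT2 and iNKT17 sum overlapped those of liver and spleen. No marker of these lists passed the adjusted threshold in any comparison. The 3 hepatocyte markers in the table summed to 1250 to 1631 in liver, 0.0604 to 270 in thymus and 0 to 14.1 in spleen. The 5 markers of iNKT2 and iNKT17 cells summed to 4062 to 6737 in thymus, 3057 to 5097 in liver and 5253 to 7779 in spleen. The plasmacytoid dendritic list rested on Ccr9 and Bst2. Ccr9, a chemokine receptor that T cells also use, averaged 338 ± 324 in thymus, 3665 ± 349 in liver and 6401 ± 2017 in spleen (SD, n = 3 each). The erythroid markers summed to 2.397 to 249, 10.2 to 171 and 55.6 to 480 in thymus, liver and spleen. Their part in the values of the 4 genes was not tested.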

How the data were processed

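RNA-seq of iNKT1 cells gave 9 libraries, 3 each from thymus, liver and spleen. The authors' deposited table holds normalised read counts, treated as a signal because the values are not whole. The submitters' processing notes name Trimmomatic 0.33, TopHat2 2.1.0, HTSeq 0.6.1, edgeR and build mm10, with no role or order; the scaling and the annotation counted on are not given in the sources used here. The column of thymus replicate 2 carries a letter in its prefix that the labels do not explain. Symbols matched 13359 of 14004 gene identifiers.

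The tests were limma-trend (limma 3.58.1, R 4.3.3) on log2(value + 1), because the unit is not a count. All 9 libraries entered 1 fit with a term per tissue, after genes were kept whose value reached 1 in 3 or more libraries (13309 genes). P-values are two-sided with Benjamini-Hochberg adjustment over all genes and a threshold of 0.05. Fold changes on this scale understate low genes. Reads were recovered from the steps of the low values. Among low values (up to 20 reads), 93.6% were whole to within 0.1 reads, with 73.5% in liver replicate 3 and at least 98.2% in the others. These reads entered edgeR 4.0.16 and DESeq2 1.42.0 as alternatives. The balance of Id2 to Id3 was tested by exact permutation of libraries (Python 3.11.15). The fits were tested on simulated data. Levels per kb used the union of GENCODE M21 exons (GRCm38).

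The 4 genes were always named. In each list the genes past the threshold were named, up to 4 per comparison by adjusted p, and where none passed the 2 with the largest mean. The 3 genes most like each of the 4 were those with the highest Pearson's r. The lists were helix-loop-helix partners, E protein targets, Id regulators, genes with high Id2 or high Id3, and markers of iNKT1, iNKT2 and iNKT17 cells, immature thymocytes, B cells, myeloid cells, plasmacytoid dendritic cells, hepatocytes and erythroid cells. The genes, lists and tests were chosen with earlier results of these data known.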

Additional observations from a re-analysis of the deposited data

How the results depend on the processing

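Alternatives were other pseudocounts, filters and scalings, edgeR, DESeq2, array weights, the 6 compared libraries alone, the replicate number as a block, and each library left out. Those chosen after seeing the data were a term for the libraries numbered 2, both libraries with the most B cell reads left out, Id3 at the value of 3 reads, and the reruns for Il7r, Gzma and Gzmb. The sign of Id2 in each comparison, of Id3 against thymus and of the balance against thymus held in all of them. The count of the 4 genes past the threshold was 1, Id3, with DESeq2 for liver against thymus (-9.25, adjusted p = 0.0350), and otherwise 0.

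The sign of liver minus spleen turned for the balance with Id3 at 3 reads (-0.31) and without both B cell rich libraries (-0.67), and ran from -0.63 to 1.92 with 1 library left out. For Id3 it was 0.43 without those libraries and ran from -2.03 to 0.28. For Tcf3 it was 0.22 with array weights and 0.55 without those libraries and ran from -0.48 to 0.39. For Tcf12 it was 0.01 with DESeq2 (0.0145), 0.066 with array weights, 0.15 without those libraries and 0.01 (0.0093) with TMM scaling, and ran from -0.15 to 0.13. Liver minus thymus of Tcf12 was -0.25 with TMM scaling and ran from -0.10 to 0.18, and that of Tcf3 was 0.33 with array weights and ran from -1.15 to 0.64. Spleen minus thymus of Tcf12 was -0.0025 with DESeq2 and -0.26 with TMM scaling and ran from -0.080 to 0.18. For Tcf3 it was 0.11 with array weights and 0.03 with equal totals with (0.0313) or without (0.0282) mitochondrial genes, and ran from -0.98 to 0.81. The share of the balance between tissues ran from 52.4% to 81.8% with 1 library left out. The cause was not tested.

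Whether same-numbered libraries are paired was not settled. The correlations of their deviations ran from -0.000732 to 0.0891 over 9 pairs, each under the 0.1 set as the threshold for pairing. However, 7 of the 9 libraries were closest to their own number, and the libraries numbered 2 had high Xist in all 3 tissues. With the replicate block, 0 of the 4 genes passed in any comparison. The calls over all genes were then 42, 55 and 4 in place of 43, 53 and 2 for liver against thymus, spleen against thymus and liver against spleen, and the balance had an exact permutation p of 0.111. Il7r passed in all 3 comparisons with the replicate block.

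Liver minus spleen of Id3 could not be fitted on the 6 compared libraries, where it did not pass the filter. Liver replicate 3, with 3877119 reads, limits what a count of 0 shows for Id3, and 3 libraries per tissue limit every test.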
